A study of Mus musculus with 3 samples.

Results

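The mitochondrial carrier family Slc25 was examined for binding of ESRRA, the estrogen-related receptor alpha, in the mouse duodenum. The family was taken as every protein-coding gene of the GENCODE M1 annotation (genome build mm9) whose symbol is Slc25a followed by digits, which gave 44 of 22367 protein-coding genes, on 19 chromosomes. A gene was counted as bound where the midpoint of an ESRRA peak lay within 30 kb of the start site of any of its transcripts. By this rule 8 of the 44 genes had a peak and 36 had none, and 11 of the 1639 peaks of the list belonged to the family. The peaks came from ChIP-seq, in which cross-linked chromatin is pulled down with an antibody and the recovered DNA is sequenced. The cells were adult villus cells of the duodenal epithelium, from wild-type C57BL/6 mice on regular chow, fixed with disuccinimidyl glutarate and then formaldehyde. The series held 2 libraries made with an anti-ESRRA antibody and 1 input library of chromatin that was not pulled down, all of the same genotype. The number of animals behind each library is not given in the sources used here.

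Most Slc25 proteins are carriers of the inner mitochondrial membrane. They exchange ADP for ATP, import phosphate, and move organic acids, amino acids and cofactors between the cytosol and the matrix, and so tie oxidative phosphorylation to the rest of metabolism. ESRRA is an orphan nuclear receptor known for its action on genes of energy metabolism. It binds DNA as a monomer or dimer at an extended half-site written TCAAGGTCA, whose core is AAGGTCA and which ends in AGGTCA, the hexamer that many nuclear receptors share.

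The authors called 1 list of peaks on both ChIP libraries after merging them, with a MACS2 p-value limit of 1e-05. Each of the 1639 peaks was 601 bp wide and carried no height or score, and the number of reads behind a peak is not in the list. The data therefore held no replicate error, no group comparison and no test, and each Wilson interval given covers counting error only. A peak in bulk villus chromatin does not tell strong binding in few cells from weak binding in many. The peak list alone does not show which gene a bound region acts on. It also holds no expression values by which the labelled cell type could be checked.

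Sequences from peaks at the bound Slc25 genes are shown first, because the half-site in them differed from peak to peak. None is printed from the Slc25a3 promoter peak or from either Slc25a11 peak. In the first set, capitals mark an exact TCAAGGTCA, which 4 of the 11 peaks held. The stretches from peaks in transcribed, untranslated sequence are short.
Slc25a25 peak, chr2:32327015-32327135, plus strand: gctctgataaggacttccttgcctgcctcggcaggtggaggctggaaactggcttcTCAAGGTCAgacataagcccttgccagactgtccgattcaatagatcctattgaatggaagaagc
Slc25a3 upstream peak, chr10:90590260-90590380, plus strand: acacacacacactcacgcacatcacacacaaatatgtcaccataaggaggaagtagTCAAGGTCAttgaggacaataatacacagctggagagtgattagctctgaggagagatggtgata
Slc25a5 peak, chrX:34336131-34336251, plus strand: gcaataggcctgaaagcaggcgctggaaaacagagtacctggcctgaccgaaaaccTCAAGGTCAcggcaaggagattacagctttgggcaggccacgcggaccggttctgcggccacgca
Slc25a39 peak, chr11:102269166-102269194, plus strand: ggtcggttctTCAAGGTCAtcagagtgtg

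In the second set, capitals mark a close match to TCAAGGTCA in 3 peaks without an exact copy. In the peaks at Slc25a13 and Slc25a34 the capitals differ from TCAAGGTCA at 1 base. The Slc25a10 upstream peak held the 7-base core in GGAAGGTCA, which differs from TCAAGGTCA at 2 bases.
Slc25a13 peak, chr6:6135546-6135666, minus strand: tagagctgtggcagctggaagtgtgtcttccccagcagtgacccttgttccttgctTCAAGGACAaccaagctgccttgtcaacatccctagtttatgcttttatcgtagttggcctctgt
Slc25a34 peak, chr4:141174155-141174183, plus strand: ccgctagactTCAAGGCCAccatgccttc
Slc25a10 upstream peak, chr11:120345972-120346000, minus strand: cgcaagcgGGAAGGTCAcacgcggctcta

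The third set is the middle of the other Slc25a10 peak, downstream of the gene, which had no AGGTCA. Capitals mark each GGGTCA, a hexamer close to AGGTCA.
Slc25a10 downstream peak, chr11:120368007-120368127, minus strand: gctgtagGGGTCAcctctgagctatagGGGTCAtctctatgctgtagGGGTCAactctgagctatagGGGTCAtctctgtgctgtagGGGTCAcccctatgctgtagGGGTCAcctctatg

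Of the 44 Slc25 genes, 18.2% (95% Wilson interval 9.51 to 32%) had an ESRRA peak within 30 kb of a start site. Among all protein-coding genes the share was 8.75%, or 1956 of 22367. At the promoter, taken as within 1 kb of a start site, 3 Slc25 genes had a peak, which was 6.82% (interval 2.35 to 18.2%) beside 2.08% of all genes. Those 3 were Slc25a3, Slc25a39 and Slc25a5. The next 4 genes, Slc25a11, Slc25a34, Slc25a10 and Slc25a13, had their nearest peak between 3.63 and 7.04 kb away, and Slc25a25 had it 20.1 kb away. The 8 bound genes lay on 6 chromosomes, and 5 of them had 1 peak and 3 had 2. Slc25 genes with a peak had a median of 5.5 annotated start sites and those without one a median of 2, and the rule counts a peak near any start site. Over all protein-coding genes these medians were 3 and 2.

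**Figure D1:**
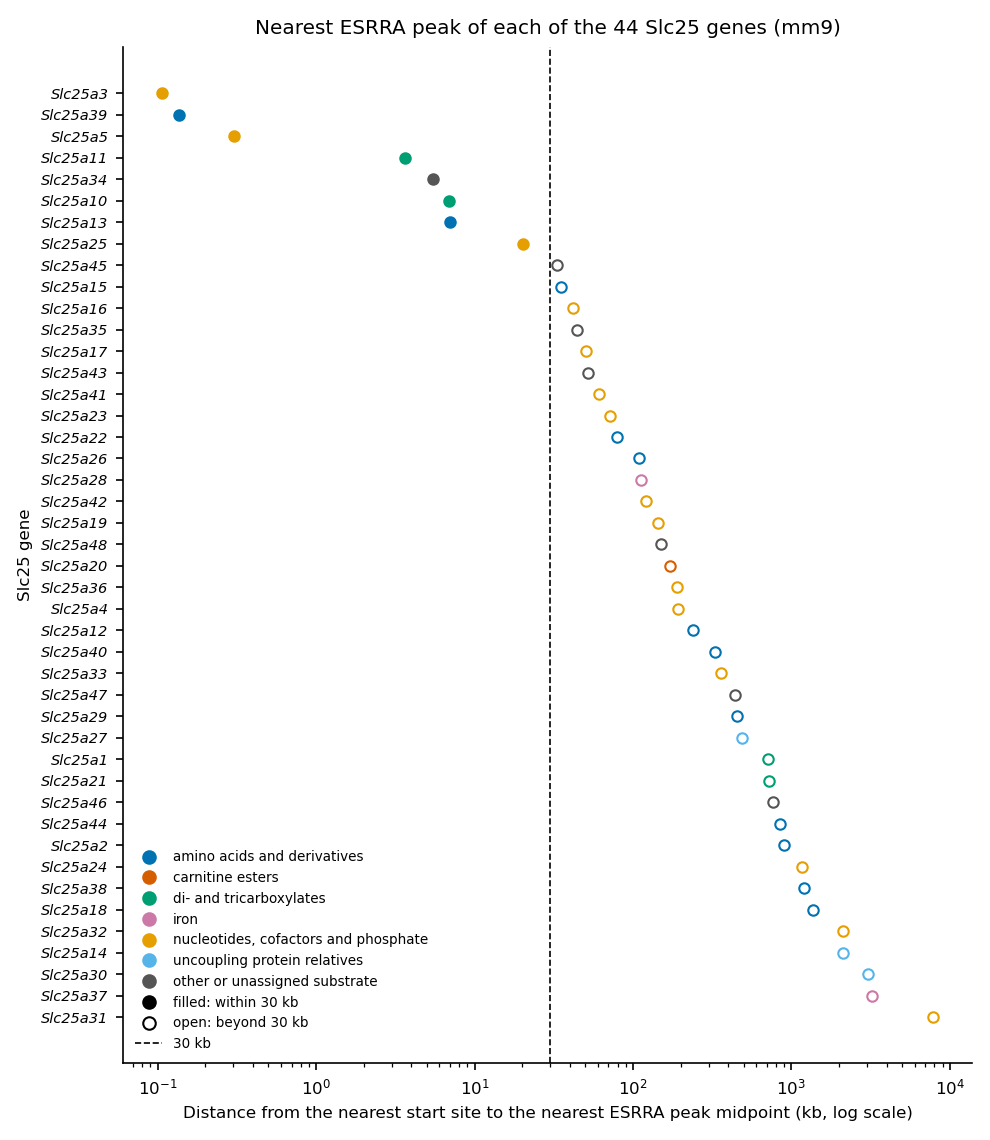
Distance in kb (log scale) from the nearest transcript start site of each of the 44 Slc25 genes to the midpoint of the nearest ESRRA peak, coloured by carrier group. The 8 filled points lie within 30 kb (dashed line), 3 of them under 1 kb, and the 36 open points run from 33 kb for Slc25a45 to 7877 kb for Slc25a31.

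The carriers of nucleotides, cofactors and phosphate were the most numerous group, with 15 genes, of which 3 had a peak. Carrier groups held between 1 and 15 genes. Their shares were not tested against each other or against the 8.75% of all protein-coding genes. Slc25a3 (ENSMUSG00000061904.6, chr10:90579319-90586804, minus strand) encodes the phosphate carrier, which supplies phosphate to the ATP synthase. It had 2 peaks 3568 bp apart. The first, chr10:90586294-90586894, was centred 106 bp into the gene from a start site, in an untranslated exon of Slc25a3, and its GC content of 70.7% was the highest of the 11 peaks. The other, chr10:90589862-90590462, lay in intergenic sequence 3358 bp upstream of the gene and had a GC content of 44.9%, level with the lowest of the 11. The receptor sequences were also unequally spread over the pair. The upstream peak held 2 copies of AAGGTCA, 1 of them the full TCAAGGTCA at 158 bp from its midpoint, whereas the promoter peak held a single AGGTCA, in AGGAGGTCA, and no AAGGTCA. Slc25a3 was the nearest gene to both.

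Slc25a5 (ENSMUSG00000016319.3, chrX:34335646-34338802, plus strand) encodes an adenine nucleotide translocator, which exchanges matrix ATP for cytosolic ADP. Its single peak, chrX:34335654-34336254, was centred 305 bp into the gene from a start site, in an intron of Slc25a5, with no other coding gene within 30 kb. The peak carried TCAAGGTCA 237 bp from its midpoint, near its edge. Its relatives with the same exchange did not have a peak in reach, since the nearest peak was 193 kb from Slc25a4, the translocator of heart and muscle, and 7877 kb from Slc25a31, the translocator of the male germline. The peak nearest to Slc25a4 had a median of 1138 copies of its 24-base words in the genome, so that the place of its reads is uncertain.

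Slc25a25 (ENSMUSG00000026819.9, chr2:32270007-32306965, minus strand) encodes a calcium-regulated carrier that exchanges ATP-Mg for phosphate. Its peak, chr2:32326763-32327363, lay in intergenic sequence 20098 bp upstream of the gene, and the nearest other peak was 770675 bp away. Slc25a25 was still the nearest gene, and Naif1 was the only other coding gene within 30 kb of the peak midpoint. TCAAGGTCA lay 12 bp from this midpoint, the closest of all half-sites in the 11 peaks, and the peak held 2 further copies of AGGTCA. The related ATP-Mg carriers Slc25a41, Slc25a23 and Slc25a24 were 60.6, 71.8 and 1173 kb from a peak. The remaining genes of this group without a peak, which include carriers of coenzyme A, thiamine pyrophosphate, folate and pyrimidine nucleotides, were 41.7 kb or more from one.

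Among the 4 carriers of di- and tricarboxylates, 2 had peaks, and both stood among many genes, with 6 coding genes other than Slc25a11 and 4 other than Slc25a10 within 30 kb of their start sites, beside a median of 1 over all protein-coding genes. Slc25a11 (ENSMUSG00000014606.8, chr11:70457698-70460981, minus strand) encodes the oxoglutarate carrier, which takes malate into the matrix in the malate-aspartate shuttle. Its peaks lay on either side of the gene, 9021 bp apart. The peak chr11:70455481-70456081 was 3631 bp downstream of the nearest Slc25a11 start site, and the peak chr11:70464502-70465102 was 3821 bp upstream of one. Slc25a11 was the nearest gene to neither. The first lay in an untranslated exon of Gp1ba, a platelet glycoprotein gene whose start site was 3135 bp away, with 6 other coding genes within 30 kb. The second lay in an untranslated exon of Rnf167, a ubiquitin ligase gene with a start site 1364 bp away, and had 5 other coding genes in reach. Neither peak held AGGTCA.

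Slc25a10 (ENSMUSG00000025792.3, chr11:120353154-120360501, plus strand) encodes the dicarboxylate carrier, which exchanges malate or succinate for phosphate. Its peaks were 21864 bp apart, on either side of the gene. The upstream peak, chr11:120345903-120346503, was 6951 bp from Slc25a10 but only 138 bp from a start site of Mrpl12, a protein of the large mitochondrial ribosomal subunit, and its midpoint lay in an intron of Mrpl12. Its single AAGGTCA was 215 bp from the midpoint. The downstream peak, chr11:120367767-120368367, lay in intergenic sequence beyond the end of the gene, 9028 bp from its nearest start site, and Slc25a10 was the nearest gene. The other carriers of the group, the citrate carrier Slc25a1 and the oxoadipate carrier Slc25a21, were 711 and 718 kb from a peak.

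**Figure D2:**
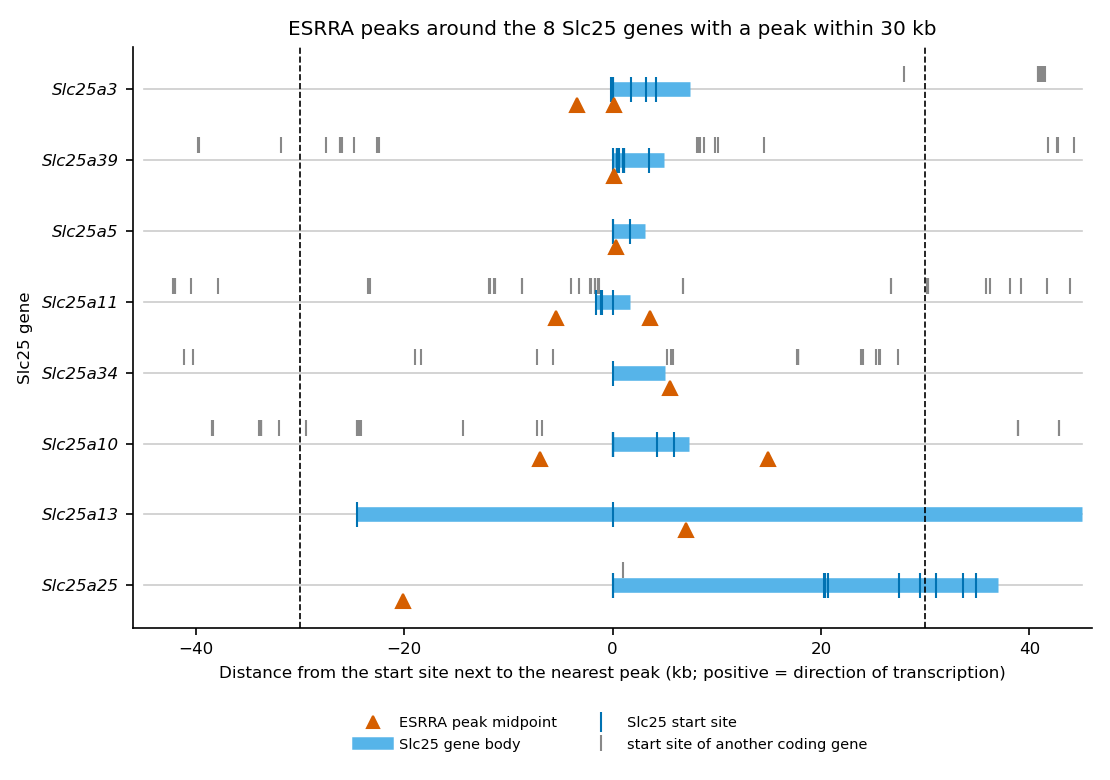
ESRRA peak midpoints (triangles), gene bodies and start sites at the 8 Slc25 genes with a peak, drawn in kb from the start site next to the nearest peak and turned so that transcription runs to the right. Other peaks of the same gene are drawn on that scale too, so the downstream Slc25a10 peak stands at 14913 bp although a later start site is 9028 bp from it, and the Slc25a13 body runs past the axis. Peaks lie at the start site of Slc25a3, Slc25a39 and Slc25a5, and grey ticks are many around Slc25a11, Slc25a34, Slc25a10 and Slc25a39.

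The carriers of amino acids and their derivatives numbered 12, of which 2 had a peak. Slc25a39 (ENSMUSG00000018677.3, chr11:102264299-102269260, minus strand) is needed for import of glutathione into mitochondria. Its peak, chr11:102268824-102269424, was centred 136 bp downstream of a start site, in an untranslated exon of the gene, and the nearest other peak was 252527 bp away. It held TCAAGGTCA 56 bp from the midpoint and AGGTCA 3 times in all. The close relative Slc25a40 was 331 kb from a peak. Slc25a13 (ENSMUSG00000015112.7, chr6:5991219-6167173, minus strand) encodes citrin, which exchanges mitochondrial aspartate for cytosolic glutamate in the malate-aspartate shuttle. Its peak, chr6:6135265-6135865, lay in an intron of the gene, 7040 bp downstream of the nearer of its 2 start sites and 31.6 kb from the most upstream one. No other coding gene had a start site within 30 kb of it, and the nearest other peak was 1261613 bp away. It held no AGGTCA, and TCAAGGACA lay 41 bp from its midpoint. Slc25a12, the other aspartate-glutamate carrier, was 240 kb from a peak.

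Of the 7 genes grouped as having another or an unassigned substrate, Slc25a34 alone had a peak (ENSMUSG00000040740.7, chr4:141174739-141179736, minus strand). The peak, chr4:141173937-141174537, was 5499 bp downstream of its start site but 84 bp from a start site of Tmem82, a transmembrane protein gene, in an untranslated exon of which it was centred. It held no AGGTCA, and TCAAGGCCA lay 68 bp from the midpoint. Slc25a35, the relative of Slc25a34, was 44.1 kb from a peak that stood 1012 bp from Pfas.

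In all, 7 of the 11 peaks had an Slc25 gene as the nearest gene, and the other 4 were nearer to Gp1ba, Rnf167, Mrpl12 and Tmem82. When each peak was given only to its nearest coding gene, 6 Slc25 genes were left, and Slc25a11 and Slc25a34 were the genes lost. Slc25a10 was kept through its downstream peak alone, which had no AGGTCA. By that stricter count 979 of all protein-coding genes (4.38%) had a peak.

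3 groups, of 1, 2 and 3 genes, had no gene with a peak. So few genes allow no comparison with the 8.75% of all protein-coding genes. The carnitine-acylcarnitine carrier Slc25a20, which brings fatty acids into the matrix for oxidation, was 171 kb from one. The iron carriers Slc25a28 and Slc25a37 were 113 and 3204 kb away, and the 3 relatives of the uncoupling proteins, Slc25a14, Slc25a27 and Slc25a30, between 485 and 3063 kb. The uncoupling proteins Ucp1, Ucp2 and Ucp3 themselves were left out by their symbols and are given under other observations. Over the whole family the median distance from a gene to its nearest peak was 161 kb, beside 448 kb over all protein-coding genes. Among the 36 Slc25 genes without a peak, 9 had one within 100 kb, 19 between 100 kb and 1 Mb, and 8 farther away. For 8 of the 36 genes this nearest peak was multi-copy, that is, its 24-base words had a median of more than 10 copies in the genome. None of the 11 peaks at Slc25 genes was multi-copy, where 324 (19.8%) of all peaks were.

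The limit of 30 kb fell in a gap of the family. Just inside it stood Slc25a25 at 20.1 kb, and just outside it stood Slc25a45 at 33 kb, Slc25a15, the ornithine carrier of the urea cycle, at 34.9 kb, and Slc25a16 at 41.7 kb. Slc25a45 had 9 peaks within 50 kb of a start site. The nearest of them had 8 further peaks within 30 kb, and its nearest coding gene was Frmd8, 18840 bp away. The peak at 34.9 kb had Slc25a15 as its nearest coding gene, and the one at 41.7 kb was 2722 bp from Rufy2. The peak nearest to Slc25a43, 52.2 kb away, was the peak at the start of Slc25a5. With the limit at 50 kb 12 Slc25 genes (27.3%) had a peak and at 100 kb 17 (38.6%), beside 12.3 and 19.8% of all genes. With the limit at 10 kb 7 (15.9%) had one and at 5 kb 4 (9.09%), beside 4.64 and 3.38%. The Slc25 share stood above that of all genes at each of these limits, with a ratio that was not tested.

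**Figure D3:**
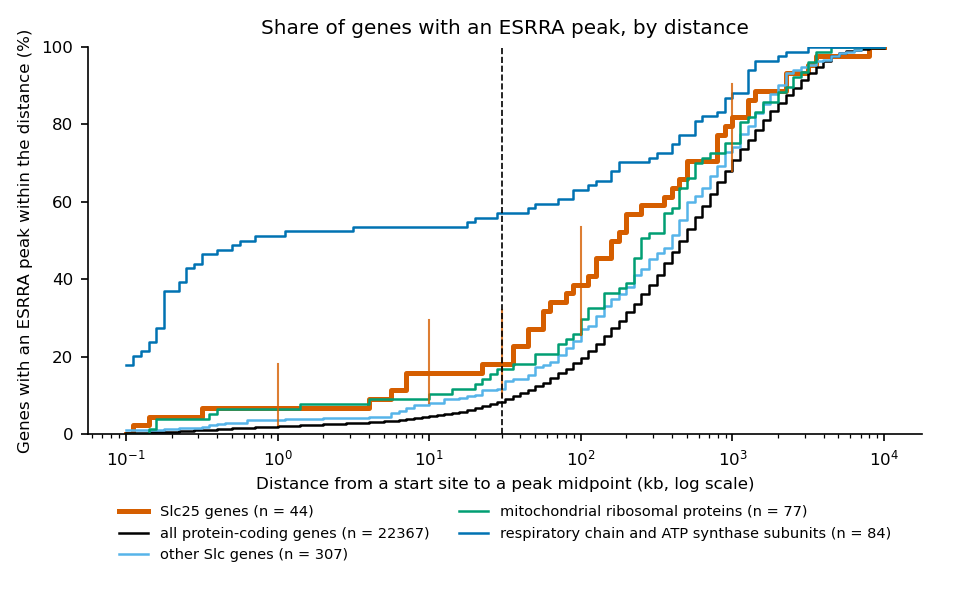
Percent of genes with an ESRRA peak within a given distance (kb, log scale) of a start site, for the 44 Slc25 genes, all protein-coding genes and 3 other families. Thin vertical bars are 95% Wilson intervals of the Slc25 share at 1, 10, 30, 100 and 1000 kb, and the dashed line marks 30 kb, where the shares were 18.2% for Slc25 and 8.75% for all genes.

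The same rule was applied to other gene families, to set the carriers beside the enzymes they serve. Of 84 subunits of the respiratory chain and ATP synthase, 48 (57.1%) had a peak within 30 kb and 43 (51.2%) within 1 kb. Of 77 mitochondrial ribosomal protein genes, 13 (16.9%) had a peak within 30 kb and 5 (6.49%) within 1 kb. Of 307 other solute carrier genes, 38 (12.4%) had one within 30 kb and 11 (3.58%) within 1 kb. The Slc25 interval at 30 kb, 9.51 to 32%, took in the shares of ribosomal proteins and of other solute carriers, and lay below the interval of the respiratory chain subunits, 46.5 to 67.2%. These families were chosen with results of the same peak list known, and the differences were not tested.

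The core AAGGTCA was searched on both strands of each peak. It occurred in 5 of the 11 Slc25 peaks (45.5%), beside 44% of all 1639 peaks, a share near that of the list as a whole. The full TCAAGGTCA, which contains the core, occurred in 4 (36.4%), those at Slc25a25, Slc25a39 and Slc25a5 and the upstream peak at Slc25a3, beside 14.3% of all peaks. AGGTCA, contained in both, occurred in 6 peaks (54.5%), beside 61.4% of all. In windows of the same width 2 kb to either side of the Slc25 peaks, 3 of 22 (13.6%) held AAGGTCA and 1 (4.55%) TCAAGGTCA, beside 12.6 and 1.59% of 3074 windows around all peaks. Allowing up to 1 difference from TCAAGGTCA, 6 of the 11 peaks (54.5%) had a match, with Slc25a13 and Slc25a34 added, beside 46.3% of all peaks, 18.2% of the Slc25 side windows and 19.4% of all side windows. The share for the full TCAAGGTCA rests on 4 peaks, and none of these motif differences was tested. The 1639 peaks include 324 multi-copy peaks, whereas the Slc25 set had none.

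**Figure D4:**
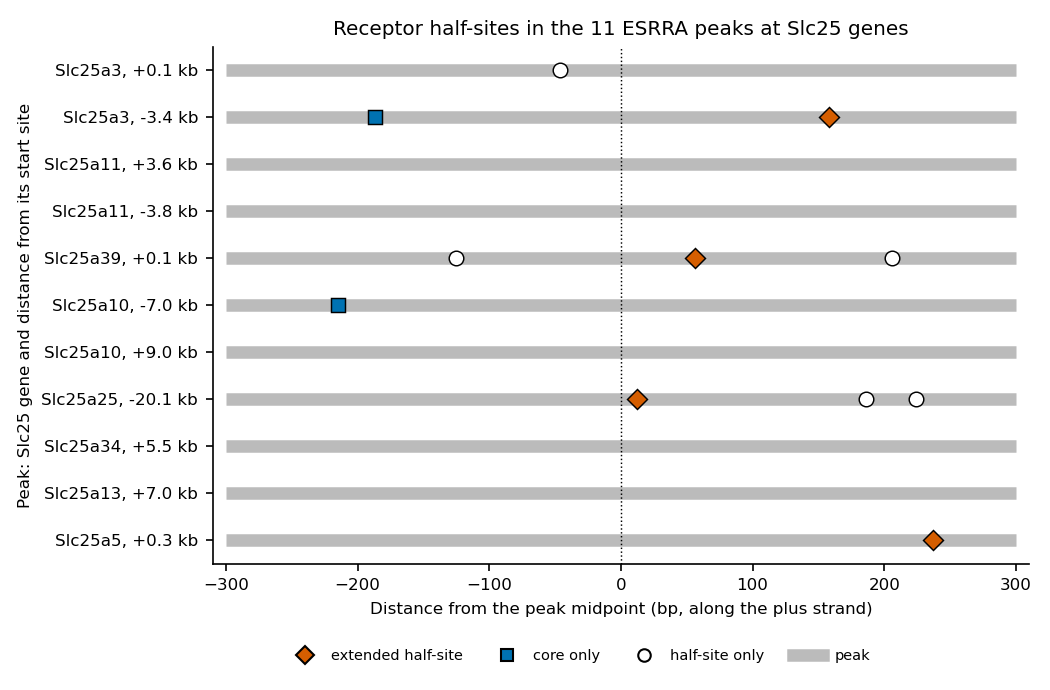
Receptor half-sites by their distance in bp from the midpoint of each of the 11 Slc25 peaks. Diamonds stand for TCAAGGTCA, squares for AAGGTCA without the full sequence, circles for AGGTCA alone, and grey bars for the 601 bp peak. The Slc25a25 diamond is 12 bp from the midpoint and the Slc25a5 diamond 237 bp, and 5 bars are empty.

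The copies of AAGGTCA lay at a median of 172 bp from the midpoint in the Slc25 peaks, beside 83 bp for the 1041 copies in all peaks. Of the 6 copies, the one at Slc25a25 lay within 50 bp of the midpoint (16.7%), beside 359 (34.5%) of the copies in all peaks. With the search limited to 100 bases on each side of the midpoint, the peaks at Slc25a25 and Slc25a39 were the 2 of 11 that held it (18.2%), beside 480 (29.3%) of all peaks. With 6 copies in 5 peaks, these differences were not tested. The 5 peaks without any AGGTCA were both peaks at Slc25a11, the downstream peak at Slc25a10, and those at Slc25a34 and Slc25a13. The absence of these letters from a window says nothing of the receptor itself.

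The downstream Slc25a10 peak, which had no AGGTCA, carried GGGTCA 15 times, all on the same strand. The copies followed each other at a median of 20 bp, from position 120367860 to 120368220 of chromosome 11, as can be read in the stretch printed above. Shifted by 40 bp, the sequence of the peak matched itself at 53.1% of bases. Only 3 of the 1639 peaks held more copies of GGGTCA. 5 or more copies were found in 7 peaks (0.427%) and in 1 of the 3074 side windows (0.0325%), while at least 1 copy was found in 32.2% of peaks and 23.7% of windows. The 24-base words of this peak had a median of 1 copy in the genome. The hexamer was counted after the sequences had been seen, and whether the tandem array itself, as assembled in mm9, has a part in the reads counted there was not tested.

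Sequences of other factors were searched in the same way. GGGCGG, a sequence bound by SP and KLF factors, occurred in 4 peaks (36.4%, beside 23.2% of all), with 5 copies at Slc25a39, 3 at the Slc25a3 promoter, 2 at the upstream Slc25a10 peak and 1 at Slc25a34. These 4 include the 3 peaks with the highest GC content, between 65.2 and 70.7%, and the median over the 11 was 54.1%, beside 48.8% over all peaks. CCGGAAG of ETS factors occurred in 2 peaks, at the Slc25a3 promoter and at Slc25a34 (18.2%, beside 8.05% of all). AGATAA of GATA factors also occurred in 2 (18.2%, beside 27.5%), at Slc25a11 and Slc25a25, and TTTATGG of CDX factors in the one at Slc25a39 (9.09%, beside 6.59%). CAAAGTCCA of HNF4, GCGCATGC of NRF1 and TGACGTCA of CREB occurred in 0 of the 11 peaks, and in 2.56, 1.1 and 1.16% of all peaks.

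The start sites of the Slc25 genes were then searched for the core in the genome sequence alone, from 250 bases before to 50 after each start site. AAGGTCA occurred there in 4 of 44 genes (9.09%), beside 9.37% of all protein-coding genes, and TCAAGGTCA in 0 of 44, beside 1.05%. With AAGGTCA in capitals, the stretches were as follows, of which the first pair belongs to genes with no peak within 30 kb.
Slc25a12, chr2:71121034-71121062, minus strand: ggttatccttgAAGGTCAgttctgagaat
Slc25a22, chr7:148618013-148618041, plus strand: tctccttaggcAAGGTCAgcttctgtcta
Slc25a34, chr4:141179851-141179879, plus strand: gatctggaggaAAGGTCActtgtgactgg
Slc25a39, chr11:102268165-102268193, minus strand: acgtaaccttgAAGGTCAcagcaaccttt

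In Slc25a12 the core lay 202 bp upstream of a start site, and the nearest peak was 240 kb away. In Slc25a22, a glutamate carrier, it lay 73 bp upstream of a start site, with the nearest peak at 79.9 kb. Slc25a34 had the core 129 bp upstream of its start site, whereas its peak was 5499 bp downstream. Slc25a39 had it 57 and 49 bp upstream of 2 internal start sites and 19 bp downstream of another, outside the peak at the upstream end of the gene. The core was thus found at the start sites of 2 of the 8 genes with a peak (25%) and 2 of the 36 without (5.56%), beside 14.6% of all genes with a peak and 8.87% of all genes without. In none of the 4 genes did a peak cover this copy of the core. The share among bound Slc25 genes rests on 2 genes, and the start sites of Slc25a3 and Slc25a5, which had peaks, did not hold AAGGTCA in these windows.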

How the data were processed

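The measurement was ESRRA ChIP-seq of duodenal villus cells, in 2 ChIP libraries and 1 input library, grouped by their titles. As the study and the submitters' processing notes describe it, the authors checked reads with FastQC (0.11.3), aligned paired-end reads to mm9 with Bowtie2 (2.2.6), merged the replicates with SAMtools (0.1.19) and made coverage tracks with deepTools (2.4.2). MACS2 peaks came from these pooled reads, with a p-value limit of 1e-05. The MACS2 version, the use of the input in the calling, any excluded regions, and how peaks came to have 1 width are not given in the sources used here. The deposited list gave each peak's chromosome and its start and end in base pairs (the start 0-based), with no counts, scores or signal, so the reads behind each peak are not known from it and a weak peak counts as much as a strong one. Pooling hides peaks found in a single library. Coordinates are given counted from 1.

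Distances ran from peak midpoints to the start sites of all transcripts in GENCODE M1 on NCBI build 37, which is mm9. Motifs were matched exactly on both strands, in peaks and in windows 2 kb to either side that touched no other peak, assembly gap or chromosome end. Copy number was the median count of 24-base words in the genome. Scripts used Python 3.11.15, numpy 2.4.6, scipy 1.17.1, numba 0.67.0 and matplotlib 3.10.9. Only the functions for nearest distance and for motif matching were tested on simulated data. Named were all Slc25 genes with a peak and all their peaks, the 3 next beyond 30 kb, those without a peak whose start site window held AAGGTCA, and bound genes of 3 related lists. Other Slc25 genes were given by group, and those singled out as relatives or neighbours were chosen after their values were seen. The members, lists and families were chosen with earlier results of these data known. Alternatives changed the distance, the start sites, the peak set, the linking rule, the motif and its window. Protein sequences were not used here.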

Additional observations from a re-analysis of the deposited data

How the results depend on the processing

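The 8 Slc25 genes within 30 kb (18.2%) became 4 (9.09%) at 5 kb and 17 (38.6%) at 100 kb, by construction of the limit. The 11 peaks became 6 at 5 kb, 23 at 50 kb and 34 at 100 kb, and 7 when each peak was given only to its nearest coding gene. The 23 peaks at 50 kb took in the 9 near Slc25a45. Peaks that held AAGGTCA fell from 5 to 2 within 100 bases of the midpoint. Start sites with the core went from 4 genes to 0 for TCAAGGTCA and to 11 (25%, beside 26.2% of all genes) for 500 bases on each side. Other changes left each count within 1.5 times its value: the count of genes was 7 at 10 kb and 12 at 50 kb, 7 with the most upstream start site only, which lost Slc25a13, 6 with the nearest coding gene only, and 8 with coding transcripts, with the peak edge and with single-copy peaks. The 3 genes within 1 kb stayed 3 at 500 bp, at 2 kb, with coding transcripts and with single-copy peaks. Leaving out each ChIP library was not run, because peaks per library were not analysed here. With no read counts in the list, the absence of a peak means only that none passed the calling threshold.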

Other observations

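3 lists of related genes were read by the same 30 kb rule. Among 10 carriers and channels of the mitochondrial membranes without an Slc25a symbol, 5 had a peak within 30 kb. The symbol rule left the uncoupling proteins Ucp1, Ucp2 and Ucp3 and the carrier homologs Mtch1 and Mtch2 out of the 44 genes. Mtch2, a carrier homolog of the outer membrane, had a peak midpoint 215 bp upstream of its start site, with AAGGTCA. Ucp2, an uncoupling protein, was 4183 bp from a peak in intergenic sequence, chr7:107650738-107651338. Ucp2 was the nearest coding gene to this peak, which held 2 copies of AAGGTCA, 1 of them TCAAGGTCA. The neighbouring Ucp3 was 29.5 kb from the same peak, just inside the limit. Vdac2, a channel of the outer membrane, was 6316 bp from a peak that stood 303 bp from Comtd1, and Vdac3 was 29.4 kb from a peak that stood 848 bp from Dkk4. Both of those peaks held TCAAGGTCA. Ucp1, Mtch1, Vdac1 and the pyruvate carrier subunits Brp44l and Brp44 (Mpc1 and Mpc2) were between 87.1 and 1687 kb from a peak.

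The carriers of the malate-aspartate shuttle are Slc25a11 and the aspartate-glutamate carriers Slc25a13 and Slc25a12, of which Slc25a12 had no peak within 30 kb. Both Slc25a11 peaks were nearer to another gene and held no AGGTCA. The Slc25a13 peak also held no AGGTCA and was 31.6 kb from the most upstream Slc25a13 start site. Of the 4 enzymes of the shuttle, the cytosolic pair had peaks and the mitochondrial pair did not. Got1, the cytosolic aspartate aminotransferase, had a peak centred 364 bp upstream of its start site, and Mdh1, the cytosolic malate dehydrogenase, had one 1523 bp downstream, in an intron. Each held 2 copies of AAGGTCA, 1 of them TCAAGGTCA. Got2 and Mdh2 were 1087 and 190 kb from a peak. Of 5 carnitine shuttle enzymes, Cpt1b alone had a peak, 21.4 kb away in an intron of Syce3 and without AAGGTCA, while Cpt1a, Cpt1c, Cpt2 and Crat were between 233 and 1301 kb from one. Among all protein-coding genes 8.75% had a peak within 30 kb, and lists of 4 to 10 genes allow no comparison with that share.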
